A study of Mus musculus with 6 samples.

Results

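The 10 heat shock chaperone genes Hspa1a, Hspa1b, Hspa8, Hsph1, Dnajb1, Dnaja1, Hsp90aa1, Hsp90ab1, Hspd1 and Hspe1 were followed in group 2 innate lymphoid cells (ILC2s) from mouse lung, out of 17546 genes in the deposited table. They were picked by name, as the chief cytosolic chaperones and the mitochondrial chaperonin, with their levels under Yoda1 and DMSO already known. Their values in that comparison are therefore given as a description, without p-values, and a count of them past a threshold restates how they were chosen. ILC2s are tissue lymphocytes that lack antigen receptors and make the cytokines of type 2 immunity. The cells came from lungs of BALB/c mice given 3 intranasal doses of recombinant IL-33, 1 µg each, so the cells of both groups had met IL-33 in the animal. Recombinant IL-2 and IL-7 (10 ng/mL of either) were present in both groups' cultures. For 24 h, 3 samples were exposed to 10 µM Yoda1, a small molecule that opens the calcium-permeable channel Piezo1, and 3 to DMSO. DMSO is the name in the sample labels, which are followed here. The design text and the treatment entry deposited with the counts both call this control PBS. Which of them it was is not settled by these sources. The labels give no age or sex of the mice.

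Bulk RNA-seq gave 3 libraries per group, labelled Yoda1 4 to 6 and DMSO 1 to 3, with 14214048 to 31627519 counts each. Yoda1 4 and 5 share a label number, as do DMSO 2 and 3, and what that number stands for is not stated. The library names also end in a suffix, which is 0 for DMSO 1 and 2 and another number for the other 4. All 15 genes in a list of ILC2 markers were detected, with summed levels of 12303 to 13374 CPM (counts scaled to library size) in Yoda1 libraries and 11460 to 12143 CPM in DMSO libraries. Il5, a type 2 cytokine gene, made up much of that sum, at 7024, 6935 and 8258 CPM under Yoda1 and 5343, 5936 and 5898 CPM under DMSO. Of the 15 markers 9 had negative changes. In edgeR 1 rose, 2 fell and 12 did not pass, where 1.49% of all tested genes were called. Groups did not overlap for 10 of the 15, where 22.6% of all tested genes did not overlap. The arginase gene Arg1 rose (log2 change 0.93), while the costimulator gene Icos (-0.89) and the IL-2 receptor gene Il2ra (-0.67) fell. Arg1 and Icos were named after their values were seen. The summed level of 11 detected lung epithelial markers was 55.9 to 76.1 CPM in Yoda1 libraries and 92.4 to 429.9 CPM in DMSO libraries. Most of that range came from Scgb1a1, a club cell gene, at 0, 0 and 0.0585 CPM in Yoda1 4, 5 and 6 and at 0, 302 and 293 CPM in DMSO 1, 2 and 3. Of 9 detected macrophage and neutrophil markers, the summed level was 24.3 to 27.6 CPM in Yoda1 libraries and 12.7 to 16.8 CPM in DMSO libraries. At 0 in all Yoda1 libraries were 5 of the epithelial markers, and in all DMSO libraries 0; Epcam, a general epithelial gene, was at 58.4, 48.8 and 70.1 CPM under Yoda1 and 67.8, 64.6 and 65.5 CPM under DMSO. T cell, NK cell and ILC1 markers, 6 of them detected, summed to 21.2 to 32.4 CPM in Yoda1 libraries and 34.7 to 39.0 CPM in DMSO libraries. Most of that sum in every library was Cd3g, at 18.4 to 27.4 CPM under Yoda1 and 30.6 to 32.4 CPM under DMSO. Prf1 overlapped, at 1.82 to 3.29 CPM under Yoda1 and 0.389 to 3.19 CPM under DMSO. B cell, stromal and mast cell markers also overlapped between groups. Whether the transcripts in these marker lists came from other cells was not tested. The part of any such cells in the chaperone values was not tested either. In bulk samples, fewer cells that carry a transcript and less transcript per cell cannot be told apart.

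Heat shock proteins are chaperones that bind unfolded proteins and help them fold, hold or refold. HSP70 proteins bind and release substrates in a cycle driven by ATP, J-domain proteins of the HSP40 family start that cycle, HSP110 proteins reset it by nucleotide exchange, and HSP90 acts later on signalling proteins such as kinases and steroid receptors. The factor HSF1 switches on many of these genes when unfolded proteins build up, by binding heat shock elements, which are repeats of the unit GAA and its reverse complement TTC. Hspa1a and Hspa1b encode the strongly inducible HSP70, whereas Hspa8 encodes the constitutive form.

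The start regions of 4 of the genes are shown because HSF1 acts there and because these genes differed in their change. Sequences are from RefSeq on GRCm38.p6, 300 bases each, from 250 bases before to 50 bases after the start, 5′ to 3′ on the gene's strand. Capitals mark GAANNTTC or TTCNNGAA, which are adjoining units of a heat shock element. Hspa1a lies on the minus strand at chr17:34972107-34972406, Hspa1b on the minus strand at chr17:34959189-34959488, Hsph1 on the minus strand at chr5:149636287-149636586, and Hspe1 on the plus strand at chr1:55087898-55088197.
Hspa1a: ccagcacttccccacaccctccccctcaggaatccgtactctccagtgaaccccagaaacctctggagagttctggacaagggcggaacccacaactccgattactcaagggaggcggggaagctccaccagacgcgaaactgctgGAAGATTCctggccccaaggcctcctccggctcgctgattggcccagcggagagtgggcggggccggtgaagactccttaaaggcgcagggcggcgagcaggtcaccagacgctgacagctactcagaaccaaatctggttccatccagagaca
Hspa1b: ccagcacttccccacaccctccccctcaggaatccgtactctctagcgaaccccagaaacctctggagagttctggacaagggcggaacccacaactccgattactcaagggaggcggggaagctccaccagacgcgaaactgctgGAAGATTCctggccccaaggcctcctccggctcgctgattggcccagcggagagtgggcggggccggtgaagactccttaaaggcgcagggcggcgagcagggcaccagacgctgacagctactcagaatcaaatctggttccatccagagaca
Hsph1: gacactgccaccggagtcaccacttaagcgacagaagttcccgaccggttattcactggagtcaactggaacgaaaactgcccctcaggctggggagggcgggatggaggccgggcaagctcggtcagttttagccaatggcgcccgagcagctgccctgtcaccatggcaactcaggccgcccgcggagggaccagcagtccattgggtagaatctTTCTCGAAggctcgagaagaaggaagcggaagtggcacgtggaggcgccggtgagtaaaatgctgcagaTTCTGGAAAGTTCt
Hspe1: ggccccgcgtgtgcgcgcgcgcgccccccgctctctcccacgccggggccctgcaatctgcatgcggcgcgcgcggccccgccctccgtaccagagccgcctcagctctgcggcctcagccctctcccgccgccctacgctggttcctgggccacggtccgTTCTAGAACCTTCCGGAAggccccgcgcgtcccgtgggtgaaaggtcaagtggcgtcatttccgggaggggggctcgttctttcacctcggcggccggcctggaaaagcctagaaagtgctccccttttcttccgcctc

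The windows of Hspa1a and Hspa1b differed at 4 of 300 bases, and both held 1 pair of units, 104 bases before the start. RefSeq windows were found for 7 of the 10 genes, and not for Hspa8, Hsp90aa1 or Hsp90ab1. A full element of 3 units, GAANNTTCNNGAA or TTCNNGAANNTTC, was present in a window of Hsph1, Hspd1 and Hspe1, against 0.662% of 27025 genes with such windows. In Hsph1 it began at base 37 of the transcript. The Hspe1 window held overlapping matches 89 and 84 bases before the start, and the same DNA lies in a window of Hspd1, which faces away from it. A pair of units was present in 6 of the 7 genes, all but Dnajb1, against 17% of all genes. CCAAT or ATTGG was present in 6 of the 7, against 41.1% of all genes, and TATAAA or TTTATA in 0 of the 7, against 15.7%. Both strands were searched, and matches may overlap. Only exact matches inside the windows were counted. An element with an imperfect unit, or one outside the windows, would be missed, so a gene without a match may still have one.

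The inducible HSP70 genes stood far above their DMSO levels, and none of the other 8 chaperones came near that size. Hspa1a was at 85.8, 97.7 and 56.6 CPM in Yoda1 4, 5 and 6, against 12.9, 22.3 and 15.2 CPM in DMSO 1, 2 and 3. The groups were well apart, and Yoda1 6 was the lowest of the treated libraries. These are 1329, 1694 and 949 counts under Yoda1 and 234, 708 and 215 counts under DMSO. The log2 change of Yoda1 over DMSO, from an edgeR fit over all genes, was 2.24 (SE 0.28), a 4.74-fold higher level. Hspa1b was at 114, 101 and 91.4 CPM in Yoda1 4, 5 and 6, against 14.1, 28.2 and 23.1 CPM in DMSO 1, 2 and 3. Its log2 change was 2.22 (SE 0.25). Within DMSO, the library with the highest level of either gene was DMSO 2 and the one with the lowest was DMSO 1.

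**Figure D1:**
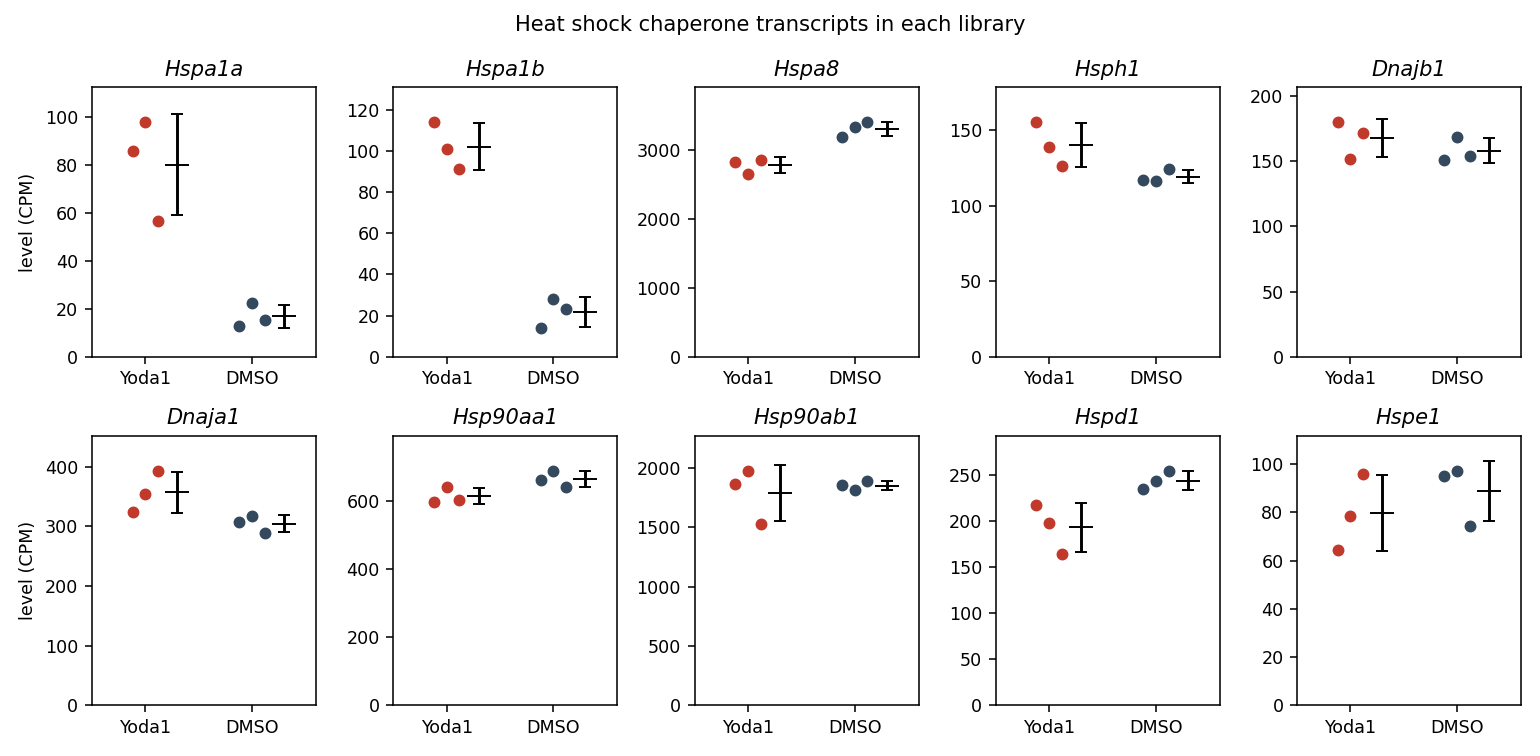
Level in CPM (y axis, from 0 in each panel) of each heat shock chaperone in 3 Yoda1 libraries (left, ordered 4 to 6) and 3 DMSO libraries (right, ordered 1 to 3), with the mean and SD as a bar. Hspa1a and Hspa1b lie at 56.6 to 114 CPM under Yoda1 and at 12.9 to 28.2 CPM under DMSO, while the other 8 genes differ 0.793-fold to 1.17-fold.

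Hspa1a and Hspa1b are near-identical copies without introns on chromosome 17, at 34969190 to 34972156 and 34956436 to 34959238 (GRCm38), both on the minus strand. Their coding sequences were 99.4% identical, with 11 of 1929 aligned positions different, whereas their 3′ untranslated regions were 45.7% identical. Of the 50-base windows of the Hspa1a transcript 58.8% were also found in Hspa1b, so the split between the copies rests on the counting method, which is not known here. The sum of both was 199.6, 199 and 148 CPM in Yoda1 4, 5 and 6, against 27.0, 50.6 and 38.3 CPM in DMSO 1, 2 and 3. This is 182 ± 29.6 CPM under Yoda1 and 38.6 ± 11.8 CPM under DMSO (SD, n = 3 each), a log2 change of 2.23 (SE 0.24). Hspa1a made up 43.0%, 49.1% and 38.3% of the sum in Yoda1 4, 5 and 6 and 47.8%, 44.2% and 39.7% in DMSO 1, 2 and 3. The shares overlapped between groups. They depend on how shared reads were allotted, so the true proportion of the copies is not known from them.

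**Figure D2:**
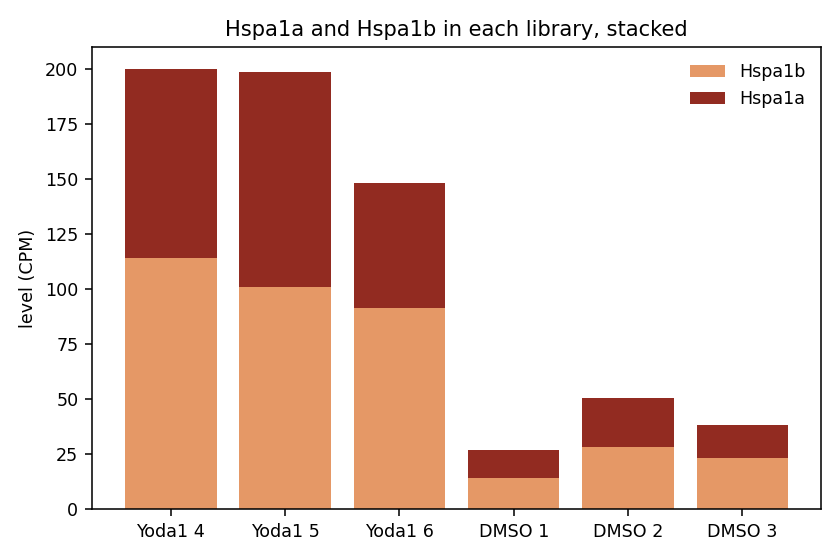
Stacked levels of Hspa1b (lower part) and Hspa1a (upper part) in CPM (y axis) in each Yoda1 library (left) and DMSO library (right). The stacks reach 148 to 199.6 CPM under Yoda1 and 27.0 to 50.6 CPM under DMSO.

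None of the tested genes around the pair had a change of its size, and those too low to test are given as counts. Hspa1l, a testis-type HSP70 gene 546 bases from Hspa1a, had 0, 20.9 and 0 counts in Yoda1 4, 5 and 6 and 0 in each DMSO library, and was too low to test. Gm10501, which overlaps Hspa1l and shares 7.95% of the windows of Hspa1a, had 49.5, 22.9 and 6.1 counts under Yoda1 and 0, 5.0 and 0 counts under DMSO. Within 50000 bases of the pair, 6 other genes were tested and none passed with p adjusted over all genes by edgeR. Before adjustment 1 of them had a p under 0.05, the lysosomal sialidase gene Neu1, at a log2 change of 0.45 (SE 0.15, edgeR adjusted p = 0.194). The RNA splicing gene Lsm2 was at -0.19 (SE 0.18) and the valyl-tRNA synthetase gene Vars at -0.22 (SE 0.12). These neighbours were named after their values were seen.

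Hspa8, the constitutive HSP70 that also strips clathrin from vesicles, lay in the other direction. It was at 2830, 2644 and 2858 CPM in Yoda1 4, 5 and 6, against 3191, 3325 and 3398 CPM in DMSO 1, 2 and 3. All Yoda1 libraries were below all DMSO libraries, with a log2 change of -0.25 (SE 0.06). Hspa8 has processed pseudogenes of nearly its sequence, and 5 of them in the table held 26.5% to 28.0% of the summed counts. The largest, Gm15459, was at 937 ± 58.0 CPM under Yoda1 and 1145 ± 56.0 CPM under DMSO (SD, n = 3 each). With these pseudogenes summed into Hspa8, the log2 change was -0.27 (SE 0.06). Relative to Hspa8, the inducible pair was at 10.6%, 11.2% and 7.78% in Yoda1 4, 5 and 6, against 1.27%, 2.28% and 1.69% in DMSO 1, 2 and 3, both as CPM per kilobase of exon. Pseudogene counts are left out of these shares, which would be lower with them.

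Among the partners of HSP70, Hsph1 encodes HSP110 (also called HSP105), a nucleotide exchange factor. Hsph1 was at 155, 139 and 126 CPM in Yoda1 4, 5 and 6, against 117, 116 and 124 CPM in DMSO 1, 2 and 3. The groups did not overlap, but Yoda1 6 was just above DMSO 3, and the log2 change was 0.23 (SE 0.12). Dnajb1 encodes the J-domain protein HSP40, which is strongly heat-inducible and represses HSF1 together with HSP70. It was at 179.9, 152 and 172 CPM under Yoda1 and 151, 169 and 154 CPM under DMSO, with overlapping groups and a log2 change of 0.09 (SE 0.11). Dnaja1, another cytosolic J-domain protein, was at 324, 354 and 393 CPM under Yoda1 and 308, 317 and 289 CPM under DMSO. The log2 change was 0.23 (SE 0.10), with the groups apart by a narrow gap. Its end overlaps the Smu1 gene on the other strand by 608 bases, where reads counted without strand could go to either gene.

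The HSP90 genes were close to their DMSO levels. Hsp90aa1, the more inducible cytosolic HSP90, was at 597, 640.0 and 601 CPM in Yoda1 4, 5 and 6, against 662, 687 and 641 CPM in DMSO 1, 2 and 3. Yoda1 5 and DMSO 3 were nearly equal, and the log2 change was -0.11 (SE 0.08). Hsp90ab1, the more constitutive form, was at 1864, 1973 and 1524 CPM under Yoda1 and 1852, 1811 and 1885 CPM under DMSO. Yoda1 6 was below and Yoda1 5 above every DMSO library, so the groups overlapped; the log2 change of -0.05 (SE 0.10) was 0.05 without Yoda1 6.

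Hspd1 and Hspe1 encode HSP60 and HSP10, the barrel and the lid of the mitochondrial chaperonin, and share a start region. Hspd1 was at 217, 198 and 164 CPM in Yoda1 4, 5 and 6, against 234, 243 and 254 CPM in DMSO 1, 2 and 3. All Yoda1 libraries were lower, with a log2 change of -0.34 (SE 0.12), the most negative of the 10. Hspe1 was at 64.3, 78.7 and 95.8 CPM under Yoda1 and 95.2, 97.2 and 74.4 CPM under DMSO. The groups overlapped, with a log2 change of -0.16 (SE 0.18) that was 0.10 with the label suffix as a term. Despite the shared start region, the genes went opposite ways within the Yoda1 group, where Yoda1 6 was the lowest for Hspd1 and the highest for Hspe1. Hspe1 as a share of Hspd1 was 53.2%, 71.1% and 105% in Yoda1 4, 5 and 6 and 73.1%, 71.8% and 52.4% in DMSO 1, 2 and 3, as CPM per kilobase. Their annotated starts overlap by 112 bases on opposite strands.

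**Figure D3:**
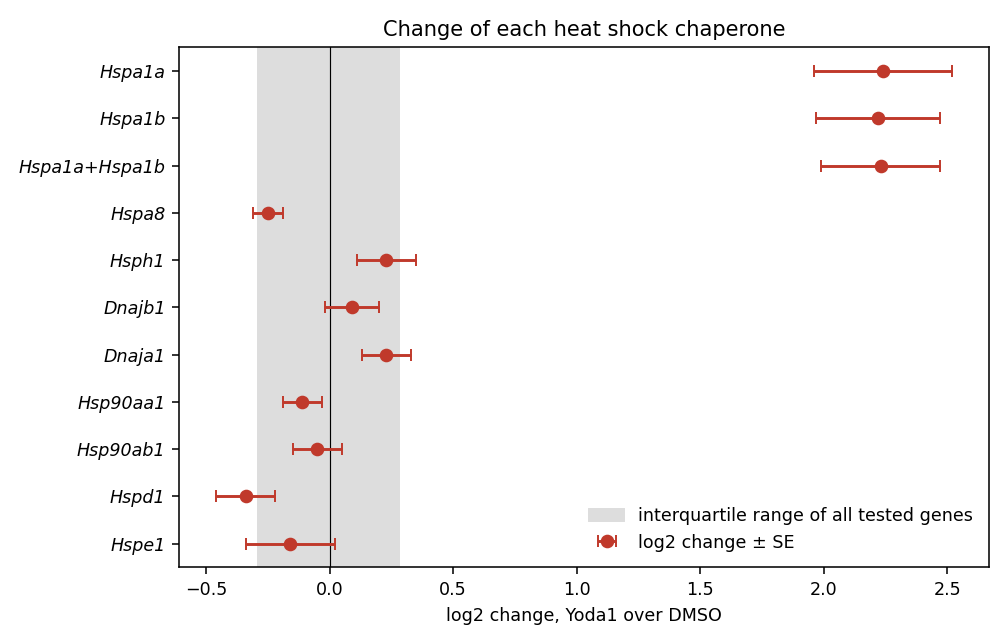
Log2 change of Yoda1 over DMSO (x axis) with its SE for each heat shock chaperone and for the sum of Hspa1a and Hspa1b (y axis); the grey band spans -0.29 to 0.28, the lower to the upper quartile of all 13325 tested genes. Hspa1a, Hspa1b and their sum lie at 2.22 to 2.24, and the other 8 genes between -0.34 and 0.23.

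Over the 10 genes, all of which passed the filter on low counts, the log2 changes ran from -0.34 to 0.23 for the 8 other than the inducible pair, with 5 of the 10 above 0 and a median of 0.02. The median over all 13325 tested genes was 0.01. Of the 10, Hspa1a and Hspa1b lay past the threshold used for all genes, both higher, where 0.57% of all tested genes were higher, 0.923% lower and 1.49% called in either direction (edgeR, quasi-likelihood F test, adjustment of Benjamini and Hochberg, threshold 0.05). The pair was chosen with these levels known, so nothing is read from that count, which was 0 without DMSO 3 and 1 without DMSO 1 or without Yoda1 5. The log2 change of their sum ran between 2.03 and 2.75 over the alternatives. Groups did not overlap for 7 of the 10, of which 4 were higher and 3 lower, where 22.6% of all tested genes did not overlap, 10.6% higher and 12% lower. By size, Hspa1a and Hspa1b ranked 62 and 66 from the highest log2 change among all tested genes. At a mean of at least 5 CPM, 7 of 9663 genes had a log2 change of at least 2, Hspa1a and Hspa1b among them. As the 10 genes were chosen with their levels known, nothing is read from these ranks or this count either. The same holds for the count of genes whose groups did not overlap.

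Together the 10 genes made up 6430, 6379 and 6083 CPM in Yoda1 4, 5 and 6, against 6638, 6814 and 6857 CPM in DMSO 1, 2 and 3. The total was thus lower in every Yoda1 library although the inducible pair was higher. Hspa8 alone made up 44.2 ± 2.77% of it under Yoda1 and 48.8 ± 0.733% under DMSO (SD, n = 3 each). Without the pair, the other 8 summed to 6115 ± 158 CPM under Yoda1 and 6731 ± 108 CPM under DMSO (SD, n = 3 each).

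Levels differed widely among the genes and are compared here as CPM per kilobase of annotated exon. Under Yoda1, Hspa8 was the highest at 646 ± 27.0, followed by Hsp90ab1 at 596 ± 78.0, which did not differ from it beyond their spread, and Hsp90aa1 at 156 ± 6.03 (SD, n = 3). Below these came Hspd1 at 73.1 ± 10.1, Hspe1 at 54.0 ± 10.7 and Dnajb1 at 52.5 ± 4.50, the last pair within their spread. Then came Dnaja1 at 41.4 ± 4.03, Hspa1b at 36.5 ± 4.01, Hspa1a at 27.0 ± 7.13 and Hsph1 at 19.3 ± 2.01 CPM per kilobase. Mean ± SD also overlapped for Hspd1 and Hspe1, Hspe1 and Dnaja1, Dnaja1 and Hspa1b, Hspa1b and Hspa1a, and Hspa1a and Hsph1. Within each Yoda1 library, Hspe1 was above Dnaja1, Hspa1b above Hspa1a, and Hspa1a above Hsph1. The order of Hspd1 and Hspe1, and that of Dnaja1 and Hspa1b, varied between libraries and is not resolved. The places of Hspa1b and Hspa1a also rest on how shared reads were allotted. Under DMSO, Hspa8 was at 768 ± 24.3, Hsp90ab1 at 617 ± 12.3 and Hsp90aa1 at 169 ± 5.78 CPM per kilobase, in the same order. The inducible pair was at the bottom there, with Hspa1b at 7.78 ± 2.55 and Hspa1a at 5.67 ± 1.66, below Hsph1 at 16.4 ± 0.596 CPM per kilobase. Hspa8 ranked 42 under Yoda1 and 25 under DMSO among 13003 genes with a length, and Hspa1b ranked 1788 under Yoda1 and 5374 under DMSO. Exon length is the union over all annotated transcripts, so a gene with a long but little used transcript gets a lower value. Counts on pseudogenes are left out of these levels. With them, Hspa8 was at 3806 ± 185 CPM under Yoda1, against 2777 ± 116 CPM without them (SD, n = 3 each). Its closeness to Hsp90ab1 therefore rests on where such reads were counted.

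Few genes of the wider chaperone network passed the test. In 10 lists covering 145 other chaperone, co-chaperone and HSF1-related genes, 131 were tested, each counted once; 1 rose, 1 fell and 129 did not pass in edgeR. This is 1.53% called, beside 1.49% of all tested genes. The edgeR share was near that of the background but rests on few calls. Their median log2 change was -0.01. Without adjustment, p was under 0.05 for 9 higher and 11 lower genes, or 15.3%, beside 14.5% of all tested genes. The calls were 4 higher and 8 lower in DESeq2, which called 3.01% of all genes higher, 3.44% lower and 6.45% in all. In limma voom they were 1 and 3, beside 0.908%, 1.34% and 2.25% of all genes. As a share of the 131, lower calls were above the share over all genes in DESeq2 and voom, and higher calls were close to it. The percentages over all genes given here are also the background for the single lists below.

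Of 20 tested genes in the list of other reported HSF1 targets, 1 rose and 19 failed to pass in edgeR; without adjustment 4 higher and 0 lower had a p under 0.05, and the calls were 2 and 0 in DESeq2 and 1 and 0 in voom. The list's median was 0.12. Over all tested genes, 0.57% were called higher in edgeR, 3.01% in DESeq2 and 0.908% in voom. An unadjusted p under 0.05 in either direction was found for 14.5% of them. Bag3, a co-chaperone that HSF1 induces along with HSP70, was at 12.9, 20.7 and 10.1 CPM in Yoda1 4, 5 and 6, against 14.1, 13.3 and 11.6 CPM in DMSO 1, 2 and 3, a log2 change of 0.17 (SE 0.31). Bag3 was singled out after its values were seen, as were Dnaja4, Dedd2 and Hsf2. The small heat shock protein gene Hspb1 was barely detected, at 1.29, 3.23 and 3.64 CPM under Yoda1 and 0.883, 2.15 and 0.283 CPM under DMSO. Dnaja4, a J-domain gene, was at 48.7, 52.2 and 40.3 CPM under Yoda1 and 34.2, 33.3 and 35.7 CPM under DMSO, a log2 change of 0.45 (SE 0.17), and did not pass (edgeR adjusted p = 0.268). Dedd2, a death effector domain gene, was at 94.7, 98.1 and 122 CPM under Yoda1 and 76.2, 69.9 and 71.5 CPM under DMSO (log2 change 0.53, SE 0.14, edgeR adjusted p = 0.116).

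Hsf1 itself was at 72.7, 61.3 and 66.6 CPM in Yoda1 4, 5 and 6, against 58.9, 69.8 and 59.4 CPM in DMSO 1, 2 and 3. The groups overlapped, with a log2 change of 0.09 (SE 0.15). Hsf2, a related factor, was low, at 1.73 to 4.10 CPM under Yoda1 and 1.27 to 4.13 CPM under DMSO. Hsbp1, which encodes a small binding partner of HSF1, was at 134, 146 and 189.6 CPM under Yoda1 and 144, 115 and 118 CPM under DMSO. None of the 3 tested genes in this list passed in edgeR, DESeq2 or voom, and 0 had an unadjusted p under 0.05.

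**Figure D4:**
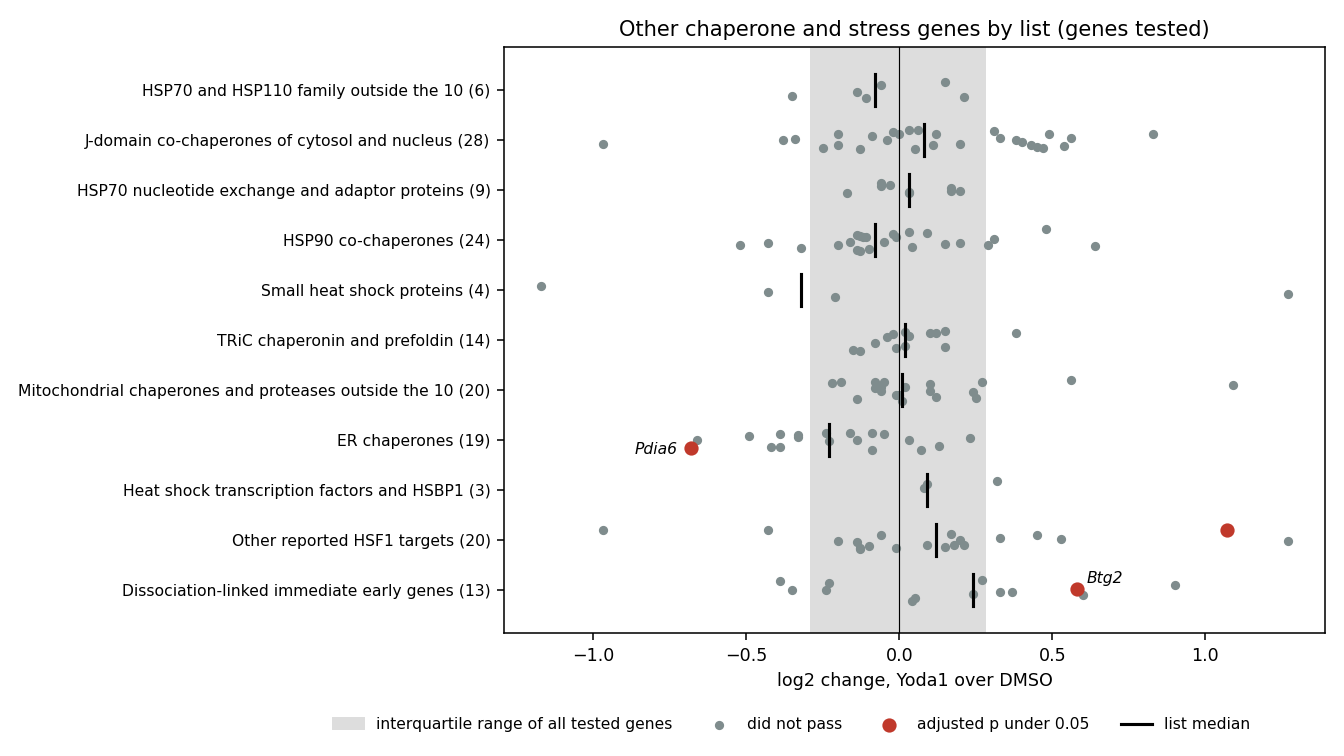
Log2 change of Yoda1 over DMSO (x axis) of each tested gene in 10 lists of other chaperone genes and 1 list of immediate early genes (y axis, with the number tested); red points passed the test over all genes, black bars are list medians and the grey band spans the quartiles of all tested genes, -0.29 to 0.28. Btg2 lies to the right and Pdia6 to the left, both in red.

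No gene in the lists of cytosolic co-chaperones passed in edgeR. Of 28 tested J-domain genes of the cytosol and nucleus none passed in edgeR or voom and 2, both higher, in DESeq2; unadjusted, 5 higher and 1 lower had a p under 0.05; the median log2 change was 0.08. The 5 higher ones, named after their values were seen and with groups that did not overlap, were Dnajb14 (log2 change 0.83, SE 0.24), Dnajc4 (0.56, SE 0.19), Dnaja4, Dnajc7 (0.38, SE 0.12) and Dnajb6 (0.33, SE 0.12). The lower one, Dnajc9, a histone chaperone, was at 338, 314 and 419 CPM under Yoda1 and 428, 471 and 496 CPM under DMSO (log2 change -0.38, SE 0.12), and Dnaja2 at -0.13 (SE 0.10). Of 24 HSP90 co-chaperones none passed in edgeR or voom and 2, both lower, in DESeq2; unadjusted, 0 higher and 2 lower had a p under 0.05. The median of that list was -0.08. Fkbp8, an immunophilin of the mitochondrial outer membrane, was at -0.16 (SE 0.07), and Cdc37, which delivers kinases to HSP90, at -0.01 (SE 0.08). Among 9 exchange factors and adaptors of HSP70, with a median of 0.03, none passed in edgeR, DESeq2 or voom and 0 had an unadjusted p under 0.05. Bag1, an exchange factor, was at 0.03 (SE 0.10), and the ubiquitin ligase gene Stub1, which marks HSP70 clients for degradation, at 0.03 (SE 0.09).

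The remaining HSP70 and HSP110 relatives gave 6 tested genes and a median of -0.08, of which none passed in edgeR, DESeq2 or voom and 0 had an unadjusted p under 0.05. Hspa4, an HSP110 protein, was at -0.06 (SE 0.14), and Hspa9, the mitochondrial HSP70, at -0.14 (SE 0.14). The cytosolic chaperonin TRiC, which folds actin and tubulin, and its helper prefoldin gave 14 tested genes with a median of 0.02, and likewise none passed in any of the 3 tools or had an unadjusted p under 0.05. Cct7 and Cct5, TRiC subunits, were both at 0.02 (SE 0.08). Of 20 mitochondrial chaperones and proteases, with a median of 0.01, none passed in edgeR, DESeq2 or voom, and 1, higher, had an unadjusted p under 0.05; Grpel1, the exchange factor of Hspa9, was at 0.27 (SE 0.14). Of the small heat shock proteins 4 were tested with a median of -0.32, all at low counts. None passed in the 3 tools or had an unadjusted p under 0.05; Hspb6 was at 2.13, 0 and 4.06 CPM under Yoda1 and 4.97, 2.97 and 6.08 CPM under DMSO.

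Chaperones of the endoplasmic reticulum had mostly negative changes, 15 of 19, where 51% of all tested genes had positive changes. Of 19 tested genes 1 fell and 18 did not pass in edgeR, and none rose. Unadjusted, 8 lower and 0 higher had a p under 0.05, and 6 lower were called in DESeq2 and 3 in voom. Over all tested genes, 14.5% had an unadjusted p under 0.05 in either direction, and 3.44% were called lower in DESeq2 and 1.34% in voom. The median log2 change was -0.23, beside 0.01 over all genes. Pdia6, a disulfide isomerase, was at 733, 737 and 842 CPM in Yoda1 4, 5 and 6, against 1206, 1232 and 1256 CPM in DMSO 1, 2 and 3, for a log2 change of -0.68 (SE 0.08, edgeR adjusted p = 0.00734). The call was lost without DMSO 1, DMSO 2, DMSO 3 or Yoda1 5 (adjusted p = 0.0508, 0.0714, 0.073 and 0.0584), and its adjusted p ran between 6.96e-11 and 0.645 over all alternatives. The HSP90 of this compartment, Hsp90b1, named after its values were seen, was at 806, 692 and 575 CPM under Yoda1 and 961, 1158 and 1145 CPM under DMSO (log2 change -0.66, SE 0.13, edgeR adjusted p = 0.0518). Hspa5, the HSP70 of the same compartment and also named afterwards, was at 1422, 1292 and 1385 CPM under Yoda1 and 1394, 1512 and 1460 CPM under DMSO (log2 change -0.09, SE 0.07).

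Immediate early genes that tissue handling is known to raise alongside HSP70 were counted as well. Of 13 tested, 1 rose and 12 failed to pass in edgeR. In DESeq2 4 higher and 1 lower passed, and in voom 2 and 0. Unadjusted, 4 higher and 1 lower had a p under 0.05, and the median log2 change was 0.24. Over all tested genes, 1.49% were called in edgeR, 6.45% in DESeq2 and 2.25% in voom, and 14.5% had an unadjusted p under 0.05. Btg2, an antiproliferative gene, was at 113, 124 and 121 CPM in Yoda1 4, 5 and 6, against 80.2, 78.0 and 81.5 CPM in DMSO 1, 2 and 3 (log2 change 0.58, SE 0.11, edgeR adjusted p = 0.0493). That call was lost in each of 6 fits with 1 library left out, and its adjusted p ran between 6.09e-05 and 0.849 over all alternatives. The others with an unadjusted p under 0.05, named after their values were seen, were Nr4a1 (log2 change 0.90, SE 0.21), Egr1 (0.60, SE 0.14) and Ier2 (0.37, SE 0.11), each higher in all Yoda1 libraries, and Jund (-0.39, SE 0.13), lower in all. Fos, also named afterwards, overlapped between the groups, at -0.35 (SE 0.28). The part of handling in the level of the inducible pair was not tested.

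The 5 genes whose log2(CPM + 1) followed the sum of Hspa1a and Hspa1b most closely over the 6 libraries, among 8994 genes searched, were Las1l (Pearson r 0.994), Ppil2 (0.992), Pex11a (0.990), Zfyve26 (0.989) and Akap8l (0.988). The points share library and depth, and the difference between the groups dominates them. Las1l, a ribosome biogenesis factor, was at 237, 235 and 214 CPM in Yoda1 4, 5 and 6, against 123, 150.0 and 149 CPM in DMSO 1, 2 and 3. Pex11a, a peroxisome proliferation gene, was at 8.97 ± 1.37 CPM under Yoda1 and 1.84 ± 0.742 CPM under DMSO (SD, n = 3 each). None of these is among the chaperone genes listed.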

How the data were processed

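The labels describe RNA-seq of sorted lung ILC2s in 2 groups of 3 libraries; the labels do not say whether each is its own mouse or culture, and p-values therefore speak only of spread among libraries, which may be technical. For 17546 genes the authors deposited expected counts (estimated reads, often fractional); 57.1% to 66.5% of a library's values were whole within 0.001. The genome build is mm10 per the submitters' processing notes. Not given in the sources used here: aligner, counting method, strand setting and filters. Libraries of a group were compared by chi-square, and none agreed within sampling noise (chi-square over its degrees of freedom at least 18.11).

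Counts were rounded and tested with edgeR 4.0.16 in R 4.3.3 by its quasi-likelihood test, with TMM factors, filterByExpr (minimum count 10, minimum total 15, 13325 genes kept), no covariates and Benjamini-Hochberg adjustment over all tested genes. The SE is the log2 change divided by the square root of F. CPM values are TMM-scaled and refer to tested genes, except those of the cell markers, which refer to all counts. Total counts set the precision: a count of 0 allows up to 0.0949 to 0.211 CPM, taking 3 counts as the limit, which covers counting error alone. Positions and exon lengths are from GENCODE M21 (GRCm38, also called mm10), and start regions from RefSeq. The 50-base windows of each transcript were matched exactly against all GENCODE transcripts.

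The 10 genes, the lists and the tests were chosen with earlier results of these data known. Named genes are the 10, Hsf1, up to 4 called genes per list or else the 2 of highest mean CPM, the 2 highest genes of a marker list where its values are given, and the 5 genes most like Hspa1a plus Hspa1b at a mean of at least 5 CPM. Others are marked as named afterwards. A result among the called list genes is not reported here, though it stays in the counts. Alternatives were RLE factors, total counts, DESeq2 1.42.0, limma 3.58.1 voom, other filters, the label suffix as a term, summed libraries, DMSO 1 as the only control, and each library left out.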

Additional observations from a re-analysis of the deposited data

How the results depend on the processing

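No paired analysis was possible because Yoda1 carries the numbers 4 to 6 and DMSO 1 to 3, none of them shared. The log2 change of Hspa1a plus Hspa1b, 2.23, was 2.75 with DMSO 1 as the only control and 2.03 to 2.48 with each library left out. The median over the 10 chaperones, 0.02, was 0.11 with the label suffix as a term and 0.01 to 0.06 with each library left out. Of 158 values of single chaperones under alternatives, 156 moved by less than the SD between replicates. The other 2 were Hspa1b with DMSO 1 alone, 2.85 against 2.22, and Hspe1 with the suffix, 0.10 against -0.16. Hsp90ab1 changed sign without Yoda1 6, within that SD. The 158 values include the fit with pseudogenes summed in. Hsph1, Dnajb1, Hsp90ab1 and Hspe1 had none added there, so their values in that fit were bound to stay nearly the same.

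Counts of calls depended on the setting. Over all genes, 76 were higher and 123 lower, against 401 and 459 in DESeq2, 121 higher in voom, 50 higher with no filter, 158 and 290 with at least 10 CPM in 3 libraries, 2 and 1 with the suffix, 1 and 0 with summed libraries, 0 and 0 with DMSO 1 alone, and 4 to 74 higher and 5 to 146 lower with each library left out. Of the 10 chaperones, 2 were higher and 0 lower. DESeq2, voom and the 10 CPM filter added 1 lower, Hspa8; the suffix, summed libraries and DMSO 1 alone gave 0 higher, and leaving out each library 0 to 2 higher and 0 to 1 lower. Of the other chaperone genes, 1 was higher and 1 lower, against 4 and 8 in DESeq2, 3 lower in voom and with the 10 CPM filter, 0 and 0 with the suffix, summed libraries or DMSO 1 alone, and 0 to 1 higher and 0 to 4 lower with each library left out. Fewer libraries leave fewer degrees of freedom. Pseudogenes were summed in as an alternative chosen after seeing the data.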

Other observations

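The Yoda1 libraries differed among themselves with transcript length, Yoda1 4 and Yoda1 6 in opposite directions. Over 9506 genes with a mean of at least 5 CPM, Spearman's rho between exon length and the library's log2 deviation from the others of its group was -0.36 for Yoda1 6, 0.33 for Yoda1 4 and 0.10 for Yoda1 5, and -0.09, -0.02 and 0.13 for DMSO 1, 2 and 3. For the Yoda1 mean over the DMSO mean it was 0.02. Each deviation is taken against the others of the group, so a trend in a single library tends to bring an opposite one in the rest. The values within a group are therefore not independent, and which library departed cannot be told from them. Genes are not independent either, and no test was made. Hspe1, the shortest of the 10 chaperone genes at 1474 bases of exon, was highest among Yoda1 libraries in Yoda1 6. Hsph1, at 7266 bases, was lowest there. Against the trend, Dnaja1, at 8629 bases, and Hspa8, at 4301 bases, were highest there. Also against it, the shorter Hspd1, Hspa1b, Hspa1a and Hsp90ab1, at 2642, 2803, 2967 and 2999 bases, were lowest there. Dnajb1 and Hsp90aa1 lay in between in Yoda1 6. The part of this trend in the chaperone values was not tested.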
